A study of Mus musculus with 8 samples.

Results

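The variable (V) genes of the T cell receptor were described in the blood mononuclear cells of mice given fucoidan or saline by mouth. They were taken as every gene of the count table that carries the biotype of a functional T cell receptor V gene, which gave 144 of 56748 genes: 110 of the alpha chain, 22 of the beta chain, 7 of the gamma chain and 5 of the delta chain. The rule reads the annotation and no measured value. The mice were male C57BL/6J animals of the wild type genotype, 8 weeks old, on a basal diet. For 1 month the mice behind 3 libraries received fucoidan, a sulphated polysaccharide prepared from the brown alga Undaria pinnatifida, at 200 mg/kg/day by daily gavage, and those behind 5 libraries received saline by the same route. Mononuclear cells of cardiac blood were separated on a density gradient, and poly(A) RNA was sequenced as paired reads of 150 bases. The titles call the libraries biological replicates, but do not say whether a library held 1 mouse or a pool, so p-values measure the spread between these libraries.

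A T cell receptor is a pair of chains, alpha with beta or gamma with delta, and each chain gene is assembled in the thymus by joining 1 V gene to a joining segment (in beta and delta chains also to a diversity segment) upstream of a constant region. The V gene supplies most of the variable domain that meets the ligand, and it differs from cell to cell in conventional alpha beta T cells, which use many V genes. Gamma delta T cells use few V genes, and which one they use goes with the tissue they settle in. A few unconventional populations have a nearly fixed receptor: invariant natural killer T cells carry Trav11 with Trbv13-2, Trbv29 or Trbv1, and mucosal-associated invariant T cells carry Trav1 with Trbv13 or Trbv19 genes.

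The V genes that the results turn on are shown by the last 60 bases of their coding strand, 5′ to 3′, from the GENCODE M21 transcripts of GRCm38, because this end holds the start of the junction and shows how alike the genes are. All 144 genes were matched to that annotation by gene identifier. The capitals mark the TGT codon of the conserved cysteine at which the junction begins. Trdv4, the gamma genes Trgv4, Trgv2 and Trgv1, and the 3 Trbv13 genes are followed by alpha genes with a close relative.
Trdv4: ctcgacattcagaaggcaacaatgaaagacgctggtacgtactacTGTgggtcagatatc
Trgv4: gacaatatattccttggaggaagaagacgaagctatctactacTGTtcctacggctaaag
Trgv2: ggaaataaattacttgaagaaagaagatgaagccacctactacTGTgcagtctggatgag
Trgv1: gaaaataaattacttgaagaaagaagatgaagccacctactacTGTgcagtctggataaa
Trbv13-2: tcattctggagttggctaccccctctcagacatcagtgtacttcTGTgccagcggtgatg
Trbv13-1: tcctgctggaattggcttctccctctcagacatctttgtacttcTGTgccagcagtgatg
Trbv13-3: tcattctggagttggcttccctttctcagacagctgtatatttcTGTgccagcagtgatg
Trav8d-2: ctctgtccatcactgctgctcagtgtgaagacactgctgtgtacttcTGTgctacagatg
Trav8n-2: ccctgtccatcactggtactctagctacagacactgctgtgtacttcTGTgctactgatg
Trav14d-3-dv8: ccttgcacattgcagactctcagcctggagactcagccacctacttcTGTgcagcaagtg
Trav14-3: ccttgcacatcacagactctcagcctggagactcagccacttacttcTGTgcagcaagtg
Trav11: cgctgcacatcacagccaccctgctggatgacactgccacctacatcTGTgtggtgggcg
Trav11d: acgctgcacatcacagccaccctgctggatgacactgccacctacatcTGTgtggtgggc
Over the last 270 bases, Trgv2 and Trgv1 were 95.5% identical, whereas Trgv4 was 67.3% identical to Trgv2 and 70.6% to Trgv1. Trbv13-2 was 91.1% identical to Trbv13-3 and 87.8% to Trbv13-1. Trav14d-3-dv8 and Trav14-3 were 97.0% identical, Trav8d-2 and Trav8n-2 91.1%, and Trav11 and Trav11d 100%, their models ending 1 base apart. Trdv4 had no close relative among the delta V genes, the nearest, Trdv2-1, being 57.5% identical. Identity was compared only within a chain, so alpha genes were not set against Trdv4.

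The libraries held 13061703 to 16334932 counts, of which V genes took 1186 to 1878 per library, or 82.1 to 115 CPM (counts scaled to a common library total) before correction for composition. Between 82 and 95 V genes had a count in a library. Haemoglobin genes took 3.51% to 8.48% of the counts in saline libraries and 13.5% to 24.1% in fucoidan libraries. Levels are therefore given as CPM scaled by the trimmed mean of M-values (TMM), and levels of different genes are compared per kilobase of the table's gene length. Of the 23 genes with no count in any library, 22 were alpha genes and the other was Trdv2-2, and a further 33 had 1 to 9 counts over all 8 libraries. A count of 0 over 122209507 counts allows up to 0.0245 CPM (3 counts, counting error only).

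How far the counts can separate single V genes differed by chain. The mouse alpha locus on chromosome 14 carries repeated blocks of V genes, whose copies bear the suffix d or n, and each gene was scored by the share of its 150-base stretches (the read length) that occur in no other T cell receptor gene. All 22 beta genes and all 7 gamma genes were wholly unique by this measure, as were Trdv4, Trdv5 and Trdv1. Of the 110 alpha genes, 39 were wholly unique and 36 had no unique stretch, and 42 were identical to another alpha gene over their last 270 bases. The 36 without a unique stretch held 72 counts together, 34 of them had fewer than 10 counts, and none had enough counts to be tested. Of the 23 genes with no count, 18 (78.3%) had no unique stretch, against 18 of the 121 genes with a count (14.9%). Trav18 was the only gene at 0 whose stretches were all unique. The sources used here do not say how reads that match several genes were counted, so a low count of a copied gene cannot be read as low expression. The 47 alpha genes without suffix held 1673 counts (median 31 a gene), the 35 d copies 366 (median 2) and the 28 n copies 292 (median 2.5).

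**Figure D1:**
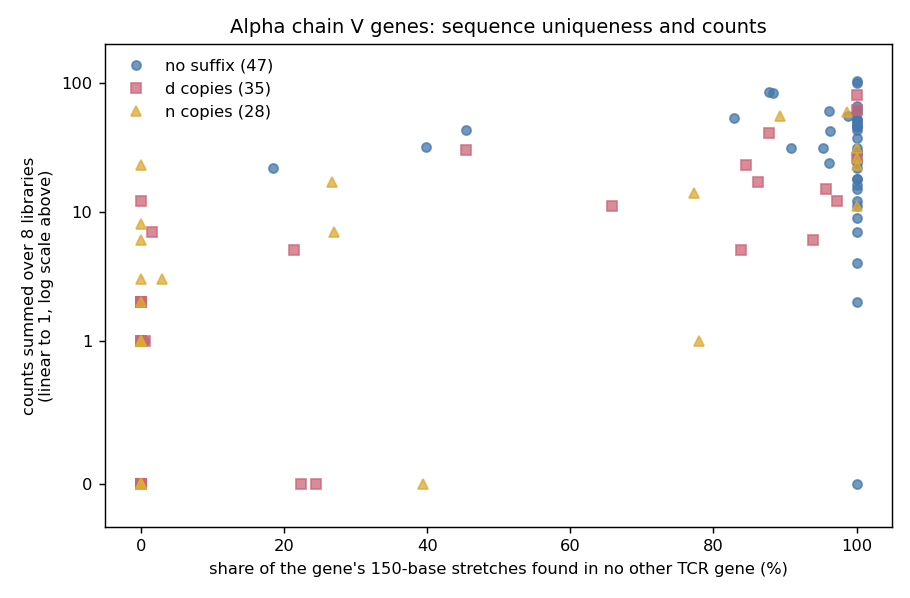
Counts of the 110 alpha V genes summed over 8 libraries (vertical axis, linear to 1 and logarithmic above) against the share of a gene's 150-base stretches found in no other T cell receptor gene (horizontal axis, percent), 1 point per gene, coloured by copy suffix. Genes at 0 on the horizontal axis lie low (34 of 36 under 10 counts), and most genes without suffix lie at the right.

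With fucoidan, 1 V gene passed the test: Trdv4, a delta V gene known from the receptors of skin and mucosal gamma delta T cells, was higher in all 3 fucoidan libraries than in any saline library. No V gene was lower by the test. Of the 144 genes 27 had enough counts to be tested (17 beta, 6 alpha, 3 gamma and 1 delta), by edgeR's quasi-likelihood test with Benjamini-Hochberg adjustment over all 14723 genes tested. Across all genes 9.11% were called higher and 4.65% lower, so 1 call among 27 is not more than the background. Among the 27, 20 had a positive and 7 a negative log2 fold change, and the median was 0.34, against -0.04 over all genes tested, of which 44.9% were positive. Without an adjustment, 4 of the 27 had p under 0.05. Group ranges of CPM did not overlap for 5 higher genes (Trdv4, Trgv2, Trgv4, Trbv15 and Trav7-4) and 1 lower gene (Trav14d-3-dv8), where 11.6% and 10.9% of all genes tested did the same. DESeq2 called 2 V genes higher and none lower, against 11.3% and 5.93% of all genes, and limma-voom 2 higher and 1 lower, against 11.2% and 7.23%. With the TCR constant genes Trac, Trbc1 and Trbc2 as the scale, 1 was higher and 1 lower, against 5.26% and 17.0%. A fit that blocked on replicate number gave 1 higher and none lower, against 7.62% and 2.98%.

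**Figure D2:**
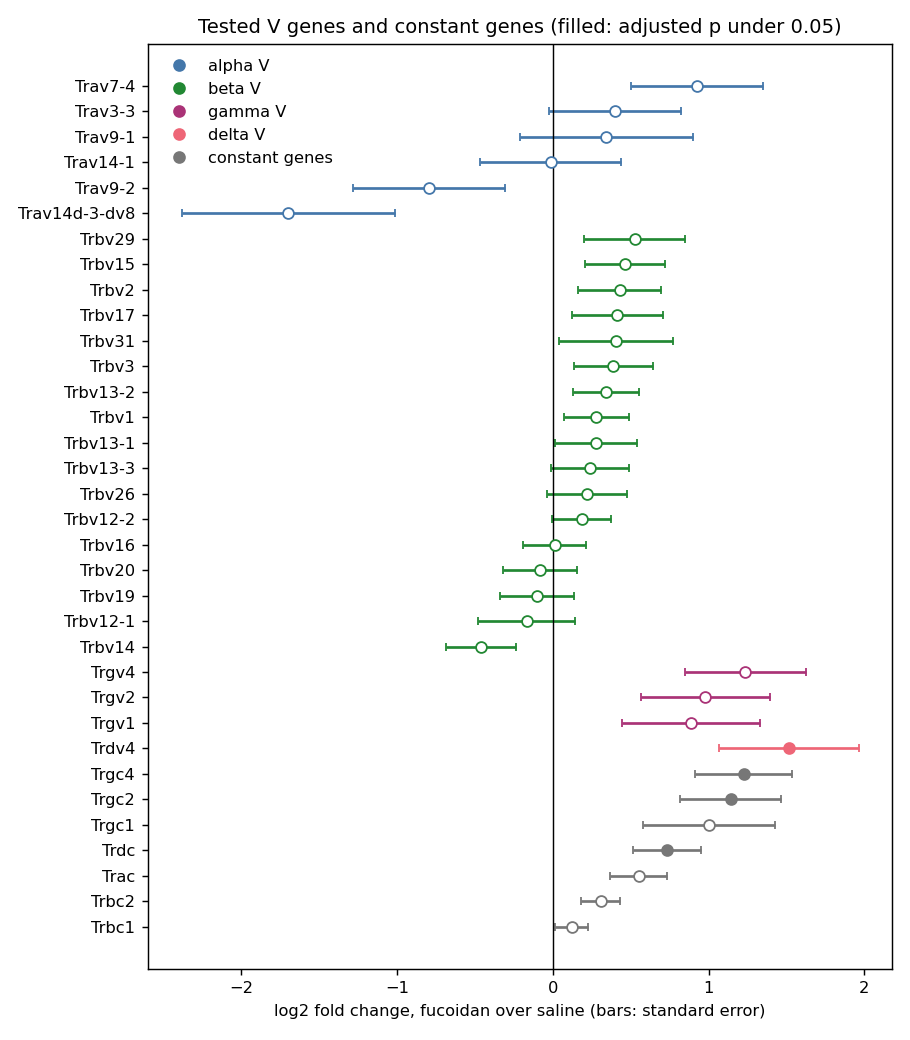
Log2 fold change, fucoidan over saline (horizontal axis), of the 27 tested V genes and 7 tested constant genes, 1 gene per line, with its standard error as the bar. Filled points passed the adjusted threshold: Trdv4, at 1.51, among the V genes, and Trgc4, Trgc2 and Trdc among the constant genes. Beta genes lie between -0.46 and 0.53, and the gamma genes between 0.89 and 1.24.

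Trdv4 lies on chromosome 14 at 54312362 to 54312972 of GRCm39, on the plus strand. In saline libraries 1 to 5 it had 1.58, 0.787, 0.805, 0.289 and 1.68 CPM (28, 14, 13, 5 and 32 counts). In fucoidan libraries 1 to 3 it had 3.46, 3.28 and 2.09 CPM (50, 43 and 19 counts). Every fucoidan value lay above every saline value, with saline 4 the lowest of all. The log2 fold change was 1.51 (SE 0.449, adjusted p = 0.0463, edgeR). The call is near the threshold: it was lost without saline 2, 3 or 4 (adjusted p = 0.0757, 0.0872 and 0.0610) and without fucoidan 1, 2 or 3 (0.149, 0.134 and 0.0713), and kept without saline 1 or 5 (0.0333 and 0.0366), the log2 fold change staying between 1.28 and 1.76. Gm30275, a long noncoding RNA whose model spans Trdv4 on the other strand, had 0 to 6 counts a library.

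The other delta V genes were low. Trdv5, whose model overlaps that of the constant gene Trdc, had 0.226, 0.169, 0.372, 0.289 and 0.157 CPM in the saline libraries and 0.760, 0.381 and 0.549 in the fucoidan libraries. These groups did not overlap, but fucoidan 2 stood only just above saline 3, and 42 counts in all were too few for the gene to be tested. It is read in the opposite direction to Trdc, and without a stated strand setting their shared reads cannot be told apart. Trdv1 had 0.261 ± 0.166 CPM (SD, n = 5) with saline and 0.207 ± 0.107 (SD, n = 3) with fucoidan, and its groups overlapped. Trdv2-1 had 2 counts in all. Several alpha V genes, named with dv, can also join to delta segments. Counting these 10 with the 5 delta genes lowered the log2 ratio of the summed delta level from 1.28 to 0.67.

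Of the 7 gamma V genes, Trgv2, Trgv1 and Trgv4 held nearly all counts and were the 3 tested. Trgv1 and Trgv4 are the usual V genes of gamma delta T cells in adult blood and lymphoid tissue. Trgv4 had 1.13, 1.24, 0.495, 0.577 and 1.15 CPM in the saline libraries and 1.52, 2.06 and 3.08 in the fucoidan libraries. The groups did not overlap, and the log2 fold change was 1.24 (SE 0.387), which missed the threshold (adjusted p = 0.0567, edgeR). DESeq2 and limma-voom placed it past the threshold (adjusted p = 0.0216 and 0.0369). Trgv2, the most abundant gamma V gene per kilobase (8.87 CPM per kb over all libraries), had 3.16, 4.67, 1.05, 1.79 and 5.19 CPM with saline and 5.39, 6.02 and 7.58 with fucoidan. Saline 3 and 4 were the low libraries, and saline 5 came just under the lowest fucoidan library. Its log2 fold change was 0.98 (SE 0.415, adjusted p = 0.150, edgeR). Trgv1 had 1.86, 1.35, 0.743, 0.404 and 1.63 CPM with saline and 1.59, 2.82 and 2.31 with fucoidan, with overlap and a log2 fold change of 0.89 (adjusted p = 0.218, edgeR). Trgv5 and Trgv6, the V genes of skin and mucosal gamma delta T cells that pair with Trdv4, had 17 and 10 counts over all libraries, and neither was tested. Trgv5 had 0.110 ± 0.101 CPM (SD, n = 5) with saline and 0.173 ± 0.193 (SD, n = 3) with fucoidan, and Trgv6 had 0.0874 ± 0.101 and 0.0620 ± 0.0563. Trgv3 had 11 counts and Trgv7 had 2, both in fucoidan 3.

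Summed over a chain, gamma and delta V genes stood higher with fucoidan without overlap, and alpha and beta V genes overlapped. The sum of all V genes also stood higher without overlap (76.2 to 100.2 CPM with saline, 102.2 to 130.3 with fucoidan). So did the sum of the alpha genes without suffix (10.7 to 13.9 CPM with saline, 14.1 to 18.6 with fucoidan). The gamma sum was 6.33, 7.70, 2.35, 2.83 and 8.60 CPM in the saline libraries and 8.64, 11.6 and 13.4 in the fucoidan libraries, a log2 ratio of the means of 1.01. Saline 3 and 4 lay far below the other saline libraries, and saline 5 lay just under fucoidan 1. The delta sum was 1.81, 1.41, 1.49, 0.808 and 2.2 CPM with saline and 4.35, 3.89 and 2.97 with fucoidan, a log2 ratio of 1.28. The beta sum was 63.7 ± 8.15 CPM (SD, n = 5) with saline and 74.8 ± 8.66 (SD, n = 3) with fucoidan, a log2 ratio of 0.23. The alpha sum was 17.7 ± 1.21 CPM with saline and 22.1 ± 6.09 with fucoidan, a log2 ratio of 0.32, in which fucoidan 3 (29.1 CPM) stood apart from fucoidan 1 and 2 (18.9 and 18.2). Without fucoidan 3 the alpha ratio was 0.08. Sums over members were described and not tested, and the difference between chains was not tested.

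**Figure D3:**
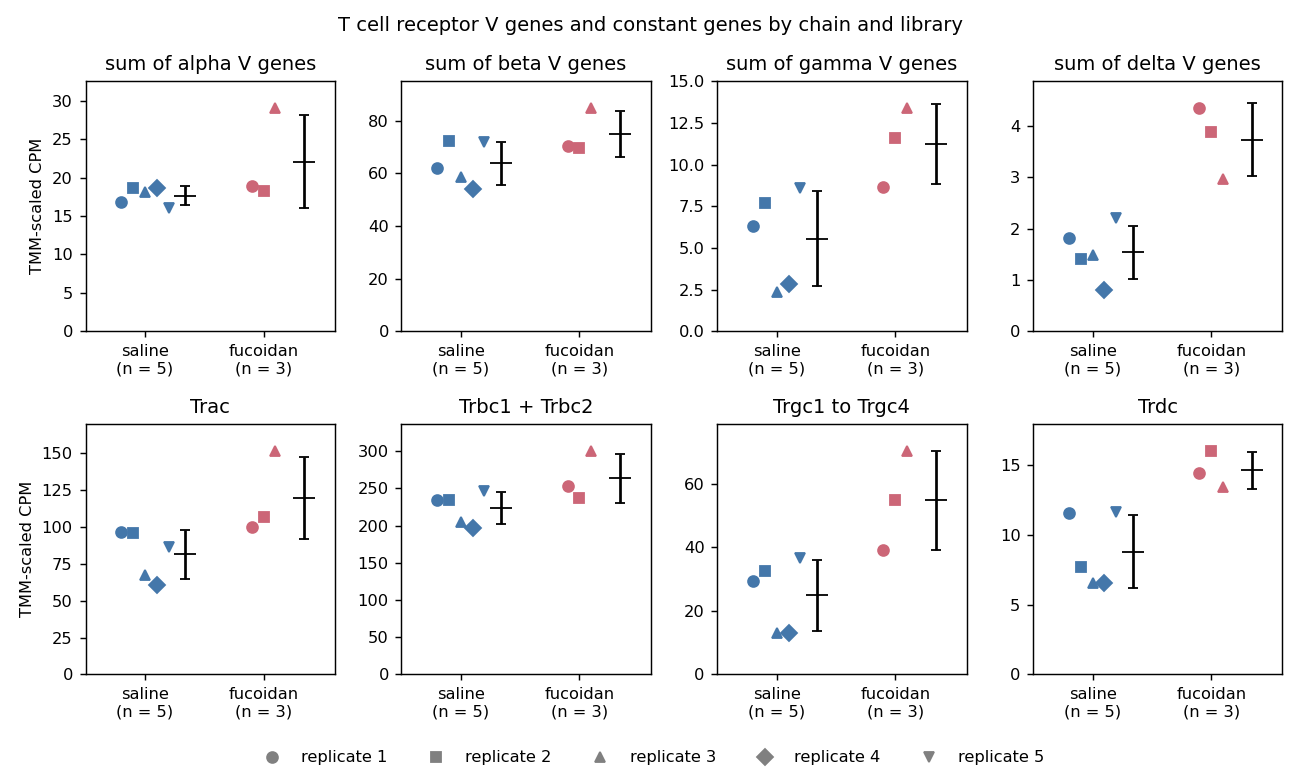
TMM-scaled CPM (vertical axes, each from 0) of summed V genes by chain in the upper row and of the matching constant genes in the lower row, 1 marker per library with its shape giving the replicate number. Crosses and bars are group means and SD (saline n = 5, fucoidan n = 3). For gamma and delta V genes, the fucoidan libraries lie above all saline libraries, and alpha and beta V genes overlap. In the lower row only the sum of Trbc1 and Trbc2 overlaps.

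Ratios within a library do not depend on its scaling. Gamma V counts were 8.42 ± 3.54 per 100 beta V counts with saline (4.03 to 12.0) and 14.9 ± 2.33 with fucoidan (12.3 to 16.7). Delta V counts were 2.39 ± 0.663 per 100 beta V counts with saline (1.5 to 3.07) and 5.10 ± 1.42 with fucoidan (3.50 to 6.19). Neither ratio overlapped between groups, though saline 5 and fucoidan 1 were close for gamma. Alpha V counts per 100 beta V counts were 28.2 ± 4.81 and 29.2 ± 4.47, with overlap. V counts were also set against the constant genes of their own chain. Beta V counts were 28.5 ± 1.63 per 100 Trbc counts with saline and 28.5 ± 0.786 with fucoidan, and gamma V counts were 21.7 ± 2.27 and 20.8 ± 1.53 per 100 Trgc counts, both with overlap. Delta V counts were 17.6 ± 3.83 per 100 Trdc counts with saline (12.4 to 22.6) and 25.5 ± 4.15 with fucoidan (22.1 to 30.1), and alpha V counts were 22.6 ± 5.92 (17.4 to 30.8) and 18.4 ± 1.16 (17.0 to 19.2) per 100 Trac counts, also with overlap. In bulk RNA, more cells of a type and more RNA per cell cannot be told apart.

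The constant genes are shared by all V genes of a chain and are counted more deeply. Of 8 constant genes 7 were tested, 3 rose and none fell, with a median log2 fold change of 0.73. Across all genes tested 9.11% rose and 4.65% fell. Trgc4, to which Trgv1 joins, had 3.81 to 9.61 CPM with saline and 12.4, 17 and 19.9 with fucoidan (log2 fold change 1.23, SE 0.311, adjusted p = 0.0243, edgeR). Trgc2, to which Trgv2 joins, rose by 1.14 (SE 0.325, adjusted p = 0.0394, edgeR). Trdc rose by 0.73 (SE 0.218, adjusted p = 0.0469, edgeR), with 6.52 to 11.6 CPM with saline and 13.4 to 16 with fucoidan. When replicate number was added as a block, Trgc4 and Trgc2 missed the threshold (adjusted p = 0.0517 and 0.192) and Trdc kept it (0.0326). Trdc missed it when scaled to the TCR constant genes (0.45, adjusted p = 0.131) or with upper-quartile factors (0.0540), and Trgc4 and Trgc2 missed it without the low-count filter (0.0914 and 0.216). All 3 calls depend on single libraries. Trgc4 lost its call without saline 1, fucoidan 2 or fucoidan 3 (adjusted p = 0.0531, 0.0835 and 0.119). Trgc2 lost it without saline 1, 3 or 4 (0.0732, 0.0557 and 0.0873) and without fucoidan 2 or 3 (0.107 and 0.204). Trdc lost it without saline 2, 3 or 4 (0.0784, 0.0841 and 0.101) and without fucoidan 1, 2 or 3 (0.111, 0.153 and 0.0956). Trgc1 had a log2 fold change of 1.00 (adjusted p = 0.149), Trac 0.55 (0.0686), Trbc2 0.31 (0.133) and Trbc1 0.12 (0.508), none past the threshold of edgeR's test. Of these, Trac did not overlap between groups, at 60.7 to 96.7 CPM with saline and 100.3 to 151.6 with fucoidan.

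Beta V genes, the best counted of the V genes with 8330 of the 11838 V counts, had their order led by the same gene in both groups, and none passed the test. Per kilobase, Trbv13-2 led with 38.4 CPM per kb over all libraries, followed by Trbv1 at 15.9, Trbv16 at 14.4, Trbv12-2 at 13.11 and Trbv13-1 at 13.02. Trbv13-2 had 11.2, 15.1, 8.17, 9.98 and 14.7 CPM in the saline libraries and 12.8, 14.6 and 17.9 in the fucoidan libraries. The groups overlapped, and Trbv13-2 was the highest beta gene in both. In saline it was at 34.8 ± 8.84 CPM per kb (SD, n = 5), against 14.8 ± 2.73 for Trbv1 in second place. Trbv1, Trbv16, Trbv12-2 and Trbv13-1 differed from their neighbours in that order by less than these SDs. The 17 tested beta genes lay between 4.53 and 38.4 CPM per kb, and the other 5 (Trbv23, Trbv30, Trbv4, Trbv5 and Trbv21) between 0.0902 and 0.618, with 4 to 26 counts in all.

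**Figure D4:**
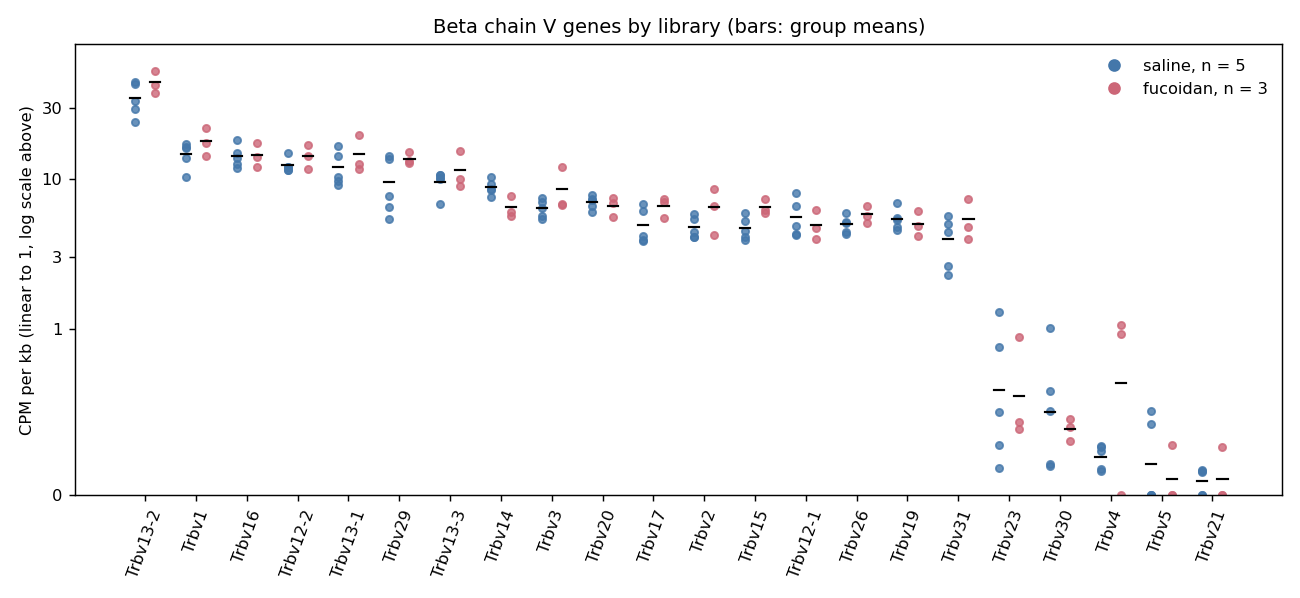
CPM per kilobase of gene length (vertical axis, linear to 1 and logarithmic above) of the 22 beta V genes, ordered by mean level, with 1 point per library (saline n = 5, fucoidan n = 3) and group means as bars. Trbv13-2 lies highest, at 38.4 over all libraries, and a gap separates the 17 tested genes from the 5 low ones.

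The log2 fold changes of the 17 tested beta genes ran from -0.46 to 0.53 with a median of 0.28, and their adjusted p from 0.208 to 0.979 (edgeR). Trbv14 was at the lower end: it had 3.16, 2.81, 3.78, 3.12 and 3.41 CPM with saline and 2.07, 2.21 and 2.86 with fucoidan. Only fucoidan 3 reached into the saline range, just above saline 2, and the log2 fold change was -0.46 (SE 0.225, adjusted p = 0.208, edgeR). Trbv29, one of the beta genes of invariant natural killer T cells, was at the upper end with 2.32, 5.06, 2.72, 1.90 and 4.83 CPM with saline and 5.39, 4.65 and 4.50 with fucoidan (log2 fold change 0.53, SE 0.325, adjusted p = 0.325). Saline 2 and 5 stood with the fucoidan libraries and the other saline libraries well below. Trbv15 was the only beta gene without overlap, at 1.44 to 2.203 CPM with saline and 2.212 to 2.74 with fucoidan (log2 fold change 0.46, adjusted p = 0.273, edgeR). Trbv13-2 had a log2 fold change of 0.34 (SE 0.209), Trbv1 0.28 (SE 0.208), Trbv13-1 0.28 (SE 0.264), Trbv13-3 0.24 (SE 0.250), Trbv12-2 0.19 (SE 0.189), Trbv16 0.01 (SE 0.200) and Trbv19 -0.10 (SE 0.238). Scaled to the counts of Trac, Trbc1 and Trbc2, which moves the median over all genes from -0.04 to -0.36, Trbv1, Trbv13-1, Trbv13-3, Trbv12-2 and Trbv16 came out below 0.

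Among the alpha V genes, with 2331 counts over 110 genes, none of the 6 tested passed the test. Trav14d-3-dv8, which can join to alpha or delta segments, had 0.565, 0.618, 0.867, 0.577 and 0.524 CPM with saline and 0.0691, 0.457 and 0 with fucoidan (62 counts in all). The groups did not overlap, fucoidan 3 had no count, and the log2 fold change of -1.70 (SE 0.685) missed the threshold (adjusted p = 0.131, edgeR). It passed with limma-voom (-2.0, adjusted p = 0.0356), with scaling to the constant genes (-1.98, 0.0407) and without fucoidan 2 (-3.68, 0.0262). However, it entered the test only through its saline libraries, where it was higher. Without saline 2, 3 or 4 it fell below the low-count filter and was not tested. These passes therefore add no support for a fall. Its nearest relative, Trav14-3, belongs with it to the Trav14 genes, whose summed level had a log2 fold change of -0.25 (SE 0.353, adjusted p = 0.702, edgeR). Trav7-4 had 0.621, 0.618, 0.805, 0.462 and 0.210 CPM with saline and 1.11, 0.991 and 0.989 with fucoidan, again without overlap (log2 fold change 0.93, SE 0.425, adjusted p = 0.182, edgeR). It is 99.6% identical to Trav7d-4 over the last 270 bases, and 87.7% of its stretches are unique.

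The other tested alpha genes overlapped between groups. Trav9-2 had 0.569 ± 0.162 CPM (SD, n = 5) with saline and 0.318 ± 0.124 (SD, n = 3) with fucoidan (log2 fold change -0.79, SE 0.488, adjusted p = 0.321, edgeR). Trav3-3 had a log2 fold change of 0.40 (SE 0.425), Trav9-1 0.34 (SE 0.554) and Trav14-1 -0.01 (SE 0.450). Trav3-3 and Trav14-1, at 2.05 and 2.03 CPM per kb over all libraries, did not differ from each other beyond their spread, and Trav9-1 and Trav7-4 followed at 1.69 and 1.61. Among genes with too few counts to be tested, Trav10n (14 counts) and Trav2 (9 counts) had counts in all 5 saline libraries and none in the 3 fucoidan libraries. Their saline means were 0.163 and 0.101 CPM, and no count over the 3 fucoidan libraries allows up to 0.0818 CPM (3 counts over the group, counting error only). Both were named after their values were seen, and how many other genes share the pattern was not counted. Trav10n is 99.3% identical to Trav10d and 98.5% to Trav10. Summed, the Trav10 genes went the other way, at a mean of 0.550 CPM with saline and 0.882 with fucoidan (log2 fold change 0.63, SE 0.496, adjusted p = 0.451, edgeR). The absence of Trav10n counts is therefore not to be read as a loss of Trav10 genes.

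Trav8d-2, the alpha gene of highest mean level, owed that place to 2 fucoidan libraries. It had 2, 3, 4, 4 and 4 counts in the saline libraries and 20, 1 and 42 in the fucoidan libraries. These were 0.113, 0.169, 0.248, 0.231 and 0.210 CPM with saline and 1.38, 0.0762 and 4.61 CPM with fucoidan. Fucoidan 3 and fucoidan 1 stood above every saline library and fucoidan 2 below all of them, so that the groups overlapped. As a share of alpha V counts it made up 15.8% in fucoidan 3 (exact binomial 95% interval 11.7% to 20.8%), 7.30% in fucoidan 1 (4.52% to 11.05%), 0.418% in fucoidan 2 (0.0106% to 2.31%) and 0.671% to 1.36% in the saline libraries. The intervals cover counting error only. All of its 150-base stretches are unique, and the filter on low counts removed it before testing. Without that filter, under which 4.50% of all genes were called higher, its log2 fold change was 3.26 (adjusted p = 0.0196, edgeR).

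To take out the way reads were split among near-identical copies, counts were also summed by subfamily, the number that follows the chain in a gene's name. Of 51 subfamilies 30 were tested (12 of them alpha), 2 rose and none fell, where 9.11% of all entries of that table rose and 4.66% fell. The 2 were Trav8 and Trdv4, the latter a single gene. Trav8, of 4 genes, had 6, 24, 15, 16 and 17 counts in the saline libraries and 29, 21 and 50 in the fucoidan libraries, at a mean of 0.886 CPM with saline and 3.03 with fucoidan (log2 fold change 1.73, SE 0.473, adjusted p = 0.0332, edgeR). Trav8d-2 alone, whose stretches are all unique, held 2, 3, 4, 4 and 4 of these counts with saline and 20, 1 and 42 with fucoidan. The Trav8 call therefore largely repeats the counts of that gene in fucoidan 1 and 3. Trav8 lost the call without fucoidan 3 (1.03, adjusted p = 0.241), without saline 3, 4 or 5 (0.0573, 0.0733 and 0.0632) and when replicate number was added as a block (0.0652). Of the 30 subfamilies 23 had a positive log2 fold change, with a median of 0.40. Trav7, of 14 genes, had a log2 fold change of 0.49 (adjusted p = 0.208), Trav6, of 15 genes, 0.57 (0.312), and the 3 Trbv13 genes together 0.31 (0.327).

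V genes of the invariant receptors were counted thinly on the alpha side. Trav11 and Trav11d, the alpha V genes of invariant natural killer T cells, had 1 and 12 counts over all libraries, and with at most 0.515% unique stretches they cannot be told apart here. Trav11d was seen in saline 2 and saline 5 (0.281 and 0.210 CPM) and in each fucoidan library (0.0691 to 0.110 CPM), at a level of 1 count in each fucoidan library. Trav1, the alpha V gene of mucosal-associated invariant T cells, had 12 counts, with 0.0924 ± 0.0541 CPM (SD, n = 5) with saline and 0.0969 ± 0.0842 (SD, n = 3) with fucoidan. Zbtb16, the transcription factor of innate-like T cells, was measured at 10.9 ± 5.32 CPM with saline and 25.0 ± 4.35 with fucoidan and rose (log2 fold change 1.19, SE 0.327, adjusted p = 0.0341, edgeR). That call was lost without saline 1, 3 or 4 (0.0865, 0.0505 and 0.0803) and without fucoidan 1, 2 or 3 (0.0542, 0.111 and 0.165), and without the low-count filter (0.202). In the list of invariant and gamma delta T cell genes to which Zbtb16 belongs, 10 were tested. Of these 3 rose (Zbtb16, Il2rb and Klrb1c) and 1 fell (Blk), where 9.11% of all genes tested rose and 4.65% fell. Il2rb and Klrb1c are also natural killer cell genes. The Klrb1c call was lost without fucoidan 1, 2 or 3 (0.0985, 0.0655 and 0.0918) and without the low-count filter (0.147), and that of Blk without fucoidan 3 (0.0504), while that of Il2rb held with each library left out.

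How evenly V genes were used within a chain was summarised by the effective number, the exponential of the Shannon entropy, which equals the number of genes if all are used alike. For beta genes it was 14.8 ± 0.530 (SD, n = 5) with saline and 14.4 ± 0.409 (SD, n = 3) with fucoidan, with overlap. For gamma genes it was 3.04 ± 0.225 and 3.02 ± 0.354, also with overlap. For alpha genes it was 48.5 ± 3.16 with saline (43.9 to 52.7) and 39.3 ± 4.68 with fucoidan (34.3, 40.0 and 43.6), without overlap, the highest fucoidan value lying just under the lowest saline one. Over the 21 alpha subfamilies, whose sums do not depend on how reads were split among copies, the groups overlapped. There it was 13.0 ± 1.06 with saline (11.7 to 14.1) and 12.7 ± 1.03 with fucoidan (11.5 to 13.3). Alpha V counts a library did not overlap between groups, at 294 to 332 with saline and 239 to 274 with fucoidan, so depth differed with the group. The further measures that follow were all chosen after seeing the data. With Trav8d-2 left out of the chain the effective number was 47.6 ± 3.16 and 41.0 ± 1.78, which overlapped narrowly (lowest saline 43.0, highest fucoidan 43.1). Simpson's effective number was 46.1 ± 3.74 and 32.7 ± 8.27, and without Trav8d-2 45.3 ± 3.72 and 38.5 ± 0.916, both without overlap. When every library was reduced to 239 alpha counts, the smallest number in any, 59.96 ± 3.20 and 55.4 ± 4.94 genes were seen, with overlap.

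Within the beta chain, the share of each of the 22 genes correlated between libraries with Pearson's r between 0.867 and 0.987 within the saline group, between 0.929 and 0.972 within the fucoidan group, and between 0.842 and 0.975 across groups. Over the 110 alpha genes these ranges were 0.555 to 0.785, 0.310 to 0.705 and 0.325 to 0.775. The points are genes of the same libraries, so these values describe the profiles and carry no test, and the alpha values rest on 239 to 332 counts a library against 772 to 1367 for beta. Within the gamma chain Trgv2 took 55.8% ± 7.99 of counts with saline and 57.0% ± 5.23 with fucoidan, Trgv1 22.4% ± 7.68 and 20.0% ± 3.82, and Trgv4 17.8% ± 3.15 and 19.4% ± 3.04. Trgv2 led in both groups, and the shares of Trgv1 and Trgv4 with fucoidan differed by less than their SDs. Trgv4 had more counts than Trgv1 in saline 4 (10 against 7) and in fucoidan 3 (28 against 21). Within the delta chain, with 14 to 63 counts a library, Trdv4 took 61.9% ± 20.2 with saline and 78.0% ± 7.07 with fucoidan, with overlap.

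Other genes of the receptor and its signalling were read as lists, to be set against 9.11% of all genes tested called higher and 4.65% lower. Of 6 genes of the CD3 complex and receptor assembly 5 were tested and 1 rose: Trat1, an adaptor that stabilises the receptor at the surface, by 1.08 (SE 0.166, adjusted p = 0.00396, edgeR). Cd3e had a log2 fold change of 0.52 (adjusted p = 0.0535), Cd3g 0.50 (0.0522), Cd247 0.33 (0.0938) and Cd3d 0.30 (0.0735), each chain of the signalling complex missing the threshold. Of 8 coreceptor and costimulatory genes 3 rose, Cd4 by 0.51 (adjusted p = 0.0407), Cd8a by 0.37 (0.0479) and Icos by 0.71 (0.0213). None of these 3 calls held without fucoidan 3 (0.191, 0.199 and 0.109), with replicate number as a block (0.108, 0.187 and 0.0649) or scaled to the TCR constant genes (0.532, 0.889 and 0.151), and those of Cd4 and Cd8a were also lost without fucoidan 1 and without saline 1, 3, 4 or 5 (0.0542 to 0.115), that of Icos without saline 4 (0.0583). Cd4 and Cd8a also missed the threshold with upper-quartile factors (0.0541 and 0.0706), and Cd8a without the low-count filter (0.0664). Of 9 tested genes of V(D)J recombination, the cutting and joining of receptor segments, none was called (median log2 fold change -0.23). Their list of 10 genes summed to 126.6 to 148.3 CPM with saline and 110.8 to 124.4 with fucoidan, lower without overlap. This sum was not tested. Of 70 joining segments 14 were tested and none was called, with a median log2 fold change of 0.38. None of 34 V pseudogenes had enough counts to be tested, and 22 of them had none.

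Markers of several other blood cell types differed between the groups in the same libraries, where 9.11% of all genes tested rose and 4.65% fell. Of 6 monocyte markers, all tested, none was called (median log2 fold change -0.26). All 10 natural killer markers rose (summed 289 to 422 CPM with saline and 706 to 972 with fucoidan), as did all 10 erythroid and all 9 tested platelet markers, while 9 of 10 B cell markers fell. Of 10 T cell markers 1 rose, Lat, by 0.65 (adjusted p = 0.0139, edgeR; 0.29 and 0.228 when scaled to the TCR constant genes), and their summed level was 1013 to 1139 CPM with saline and 1195 to 1528 with fucoidan. Of 3 tested thymocyte genes none was called, and Ptcra and Rag2, which mark developing thymocytes, were at or near 0 in both groups. The 6 genes of that list summed to 33.2 to 40.3 CPM with saline and 24.4 to 30.9 with fucoidan. The part of these cell types in the V gene values was not tested.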

How the data were processed

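The authors deposited a table of raw counts per gene for 8 libraries, with gene names, biotypes, lengths and GRCm39 coordinates, all values being whole-number counts. Per the submitters' processing notes, cutadapt 4.0, Trimmomatic 0.39 and HISAT2 2.2.1 were used with GRCm39. How reads were counted (program, annotation release, strand, reads that match several genes) is not given in these sources. Libraries were grouped by title. For the fucoidan libraries the treatment text names saline, while title and characteristics name fucoidan. The labels give 1 batch date, so no batch could be separated. The members and lists were chosen with earlier results of these data known.

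The whole table was passed through filterByExpr (edgeR 4.0.16, R 4.3.3), scaled with TMM factors and fitted with the robust quasi-likelihood test (group only), with calls at a Benjamini-Hochberg adjusted p below 0.05. The SE is the absolute log2 fold change over the square root of the F statistic. The fit was tested on simulated data. Alternatives used DESeq2 1.42.0, limma 3.58.1 (voom), other scalings and filters, each library left out, and the replicate number as a block. Libraries sharing a number correlated at 0.177, 0.233 and 0.144 after removal of group means, and the other pairs at -0.261 to 0.144. The labels state no pairing, so whether the numbers pair libraries is not known. The block served only as an alternative, and saline 4 and 5 have no partner in it. Named were the genes called, the 5 of highest mean CPM of the alpha and beta chains and 3 of the gamma and delta chains, the 3 largest changes in each direction, and V genes of invariant receptors. Trbv15, Trbv29, Trav2, Trav10n, Trav18, Trgv3, Trgv7 and subfamily Trav8 were added after their values were seen. Sequence comparisons used GENCODE M21 transcripts (GRCm38) and Biopython 1.88, and no coordinate was carried between builds. Figures were drawn with matplotlib 3.10.9.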

Additional observations from a re-analysis of the deposited data

Results flagged for a closer look

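In each of 43 sets of 5 saline values (named genes, sums and effective numbers), the gap of the highest or lowest library to its nearest neighbour was set against the whole range. In 7 sets it exceeded the 95% limit of 0.71 for Dixon's ratio, and chance gives about 1 in 20. Trav11 and Trgv6 had 1 and 8 counts in all saline libraries, where values near 0 fix the ratio, so the number 7 is not to be read against chance. Among beta genes, Trbv12-2 was high in saline 2 at 5.79 CPM, against 4.44 to 4.63 in the other saline libraries, and Trbv13-3 was low in saline 4 at 2.31 CPM, against 3.41 to 3.62. Among alpha genes, Trav14d-3-dv8 was high in saline 3 at 0.867 CPM, against 0.524 to 0.618, Trav9-2 was low in saline 1 at 0.282 CPM, against 0.618 to 0.681, and Trav11 was seen in saline 5 only, at 0.0524 CPM, which is 1 count. Trgv6 was high in saline 5 at 0.262 CPM, against 0 to 0.0619. The effective number of gamma V genes was low in saline 4 at 2.64, against 3.08 to 3.19.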

How the results depend on the processing

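The number of V genes called higher was 2 with DESeq2, with limma-voom and without the low-count filter, 0 where 10 counts were asked in every library (Trdv4 was then not tested), and 0 to 1 with a library left out. The number called lower was 1 with scaling to the constant genes and with limma-voom, and 0 to 1 with a library left out. Subfamilies called higher numbered 0 with 10 counts in every library, 1 with the replicate block and 0 to 2 with a library left out. The replicate block changed no other call among the named V genes. The alpha sum's log2 ratio was -0.048 and the beta sum's -0.092 with scaling to the constant genes, the alpha ratio was 0.081 to 0.44 with a library left out, and the delta ratio was 0.67 with dv genes included. The alpha effective number differed by -9.19 over genes, by -13.4 with Simpson's index and by -0.31 over subfamilies. After rarefaction the number of alpha genes seen, a different quantity, differed by -4.57, with overlap between groups. Simpson's index and rarefaction were chosen after seeing the data. Small changes turned sign: Trav14-1 to 0.0080 with DESeq2 size factors and 0.013 with DESeq2, and -0.35 to 0.44 with a library left out; Trav9-1 to -0.082 with the replicate block and -0.24 to 0.73; Trbv19 to 0.027 with limma-voom and -0.27 to 0.025. With scaling to the constant genes Trbv1 gave -0.0019, Trbv16 -0.33, Trbv12-2 -0.14, Trbv13-1 -0.051 and Trbv13-3 -0.091, the last -0.0099 to 0.40 with a library left out. Trbv16 gave -0.039 with upper-quartile factors, -0.033 with limma-voom, -0.0042 without the filter, -0.041 with the replicate block and -0.12 to 0.13 with a library left out. The cause was not tested. Of the other comparisons, 134 kept direction and side of the threshold, as did 123 with a library left out. Depth limits the alpha genes, with 239 to 332 counts a library over 110 genes, and the gamma and delta chains, with 38 to 164 and 14 to 63 counts a library.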
